A study of Mus musculus with 217 samples.

Results

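The brain endothelium 48 hr after lipopolysaccharide (LPS) is described here from the libraries labelled brain and 48 hr, set against those labelled brain and 0 hr. Count files of the same library were summed, and libraries with under 3% of their reads on genes were left out, which dropped 1 of 6 libraries at 0 hr (582145 gene counts, 2.54% on genes) and 1 of 7 at 48 hr (526005 gene counts, 2.11% on genes). The comparison therefore rests on 11 of the 98 libraries of the series, 5 at 0 hr and 6 at 48 hr. All were taken from adult C57BL/6J mice of the genotype Cdh5CreERT2/+; Rpl22HA/+ (RiboTagEC), all of which had been given 5 mg tamoxifen by gavage 4 times, every other day, when 4 to 6 weeks old. The 48 hr mice had received 10 mg/kg LPS intraperitoneally. The 0 hr mice are labelled as controls, and the methods of the study name mice injected with phosphate-buffered saline (PBS) as controls. In these mice the Cdh5 promoter drives a tamoxifen-inducible Cre that adds an HA tag to the ribosomal protein Rpl22 in endothelial cells (ECs), so that ribosome-bound RNA is pulled from whole brain with an anti-HA antibody. The RNA sequenced is thus enriched for ECs but not free of RNA from other cells.

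Brain ECs form the blood-brain barrier, with sealed junctions, little vesicular transport and a set of carriers and efflux pumps that decide which solutes pass. LPS, the endotoxin of Gram-negative bacteria, is bound by LBP and CD14 and sensed by TLR4, which activates NF-kappaB; cytokines released into the blood act on the same cells through receptors for TNF, IL-1 and the IL-6 family, the last through STAT3. Activated ECs display selectins and integrin ligands that slow and arrest leukocytes, present chemokines and secrete acute-phase proteins, and after injury surviving ECs can divide.

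The 11 libraries held 8757674 to 32303620 counts on genes, with 54.1% to 68.7% of reads on genes, so that the floor of 3 counts lay at 0.0929 to 0.343 CPM (counts scaled to library size). The EC genes Cdh5 (VE-cadherin) and Cldn5 (claudin-5) were among the detected genes in every library. Cdh5 stood at log2 CPM of 8.55, 8.36, 7.52, 7.94 and 8.00 in 0 hr replicates 1 to 5 and at 8.09, 8.15, 9.19, 9.38, 8.95 and 9.15 in 48 hr replicates 1, 2, 3, 4, 6 and 7, the order used for all values below, and Cldn5 at 9.97, 10.79, 9.59, 10.01 and 9.65 and at 10.74, 10.47, 10.82, 10.92, 10.66 and 11.30. Neither passed the test between 0 hr and 48 hr (log2 fold change 0.51 ± 0.26 SE, adjusted p = 0.186 and 0.57 ± 0.25 SE, adjusted p = 0.125), nor did the tagged Rpl22 itself (0.20 ± 0.16 SE, adjusted p = 0.408). RNA of other brain cells was present throughout: the summed level of 40 neuron markers ran from 4993 to 19064 CPM at 0 hr and from 2888 to 14853 CPM at 48 hr, and that of 20 astrocyte markers from 17561 to 30780 CPM and from 8267 to 16176 CPM. In bulk RNA, fewer cells of a type and less RNA per cell cannot be told apart.

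The 48 hr libraries did not lie together. On the first principal component of the 500 most variable genes, which carried 51.1% of the variance among the brain libraries, the 0 hr libraries scored from -39.19 to -37.06 and the 24 hr libraries from 29.94 to 55.16. Replicates 3, 6 and 7 of 48 hr scored 43.15, 47.62 and 42.37, inside the 24 hr range, whereas replicates 1, 2 and 4 scored -10.15, -18.49 and 13.88, in or close to the range of the 72 hr libraries (-16.52 to 11.04). No label gives a sequencing batch. File names of 4 patterns were deposited, and each pattern is called a library series here: 0 hr replicates 1 and 2 and 48 hr replicates 3 and 4 belong to series 1, 0 hr replicates 3, 4 and 5 and 48 hr replicates 1 and 2 to series 2, and 48 hr replicates 6 and 7 to series 4, which holds no 0 hr library. In the same file names each 48 hr brain library shares a code with a 48 hr heart library. No label says what this code stands for, and it is read here as that of an animal. In heart the order was alike: Lcn2 stood at log2 CPM of 10.06, 9.55, 14.32, 11.85, 14.42 and 14.10 in the hearts that share the codes of brain replicates 1, 2, 3, 4, 6 and 7, and at 10.09, 8.42, 14.71, 13.10, 14.55 and 14.78 in those brains on the same scale. Replicates 1 and 2 were thus low in both organs. Because library series and this division are partly the same libraries, they cannot be told apart, so values are given for each library, and counts also without replicates 1 and 2.

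Relative to 0 hr, 1560 genes rose and 1178 fell in brain ECs at 48 hr among 19234 genes tested, which is 8.11% of the genes tested in the upward direction and 6.12% in the downward direction (adjusted p under 0.05). The median log2 fold change was 1.30 among the genes that rose, -0.88 among those that fell and 0.02 over all genes tested. A change of at least 2-fold was seen in 981 of the risen and 486 of the fallen genes. For 434 of the risen and 266 of the fallen genes no 48 hr library overlapped with any 0 hr library, where 2.58% of all genes tested lay above and 1.90% lay below without overlap. The median of the risen genes was 1.48 within series 1 and 0.72 within series 2. Protein-coding genes made up 1375 of the risen and 1079 of the fallen genes (15381 tested); among 647 long intergenic RNAs 26 rose and 32 fell. The counts depend on the libraries used. Without 48 hr replicates 1 and 2, 2965 genes rose and 2638 fell among 18992 tested. With library series 1 and 2 only, 745 rose and 341 fell among 19698. Without 0 hr replicate 1, 737 rose and 440 fell among 19224, the lowest counts when 1 library was left out. Counts of list members in these settings are to be read against these totals.

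**Figure D1:**
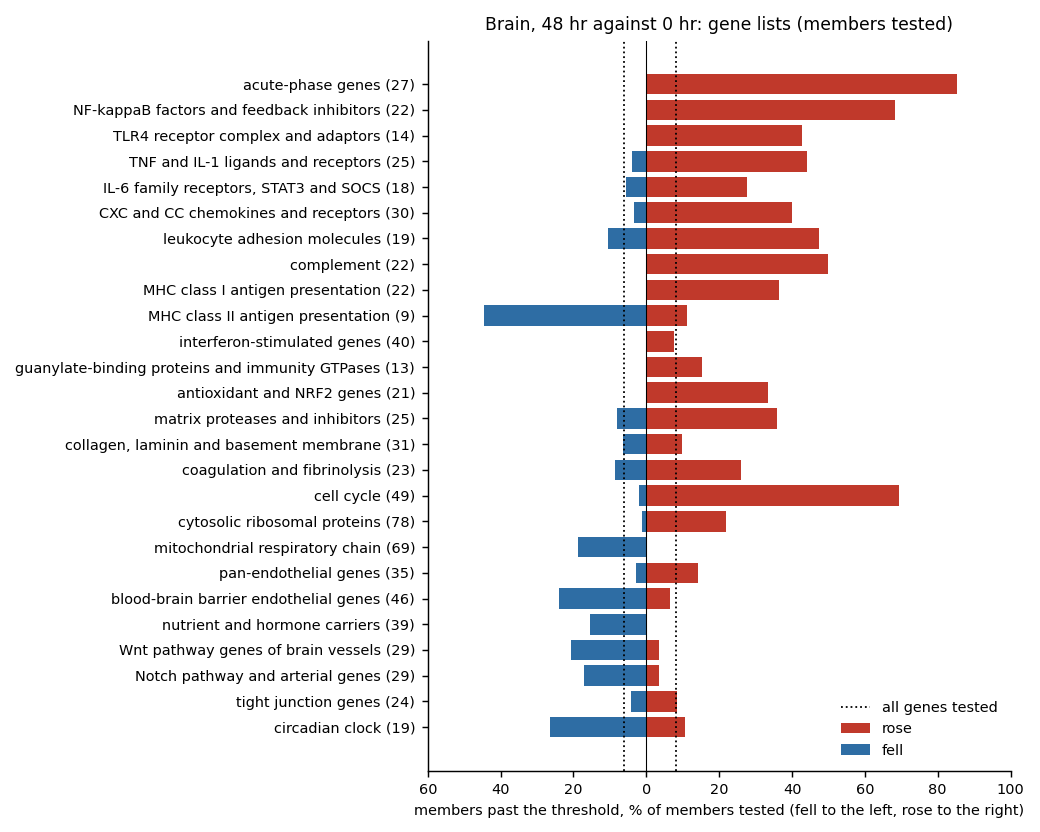
Share of each gene list that rose (bars to the right, red) or fell (bars to the left, blue) at 48 hr against 0 hr, as a percentage of the members tested, whose number is in brackets. Dotted lines mark the shares over all 19234 genes tested, 8.11% higher and 6.12% lower. Among the lists shown, acute-phase, NF-kappaB and cell cycle genes extend farthest to the right, and MHC class II, circadian clock and blood-brain barrier genes farthest to the left.

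The 12 genes with the largest rises were taken among genes at a mean log2 CPM of at least 3 whose libraries did not overlap. Saa3, a serum amyloid A protein (chromosome 7, 46711998 to 46715700, GRCm38), led with log2 CPM of 1.15, -2.33, 0.19, 0.26 and -0.30 at 0 hr and 9.69, 9.21, 11.96, 10.71, 12.14 and 12.80 at 48 hr, a log2 fold change of 11.05 ± 1.35 SE, adjusted p = 3.45e-05. Lcn2, which withholds iron from bacteria by binding siderophores, stood at 4.47, 4.76, 5.40, 4.69 and 2.66 and at 10.15, 8.52, 15.04, 13.31, 14.78 and 15.03 (log2 fold change 8.32 ± 1.06 SE, adjusted p = 4.92e-05). In both genes every 48 hr library lay above every 0 hr library, and replicates 1 and 2 were the lowest of the 6. Cxcl1, a chemokine that draws neutrophils, rose from -0.32, 0.60, -0.15, 1.43 and 0.98 to 5.92, 4.20, 11.42, 8.91, 10.43 and 11.80 (8.25 ± 1.46 SE, adjusted p = 0.000938). The adhesion receptor P-selectin (Selp), on which leukocytes roll, rose from -2.22, 0.15, -0.79, -0.77 and -1.76 to 4.82, 2.86, 8.88, 9.03, 8.03 and 8.51 (7.86 ± 1.26 SE, adjusted p = 0.000391). Exons of Selp overlap those of a gene on the opposite strand over 624 bases, and whether reads were counted by strand is not given in the sources used here. For Cxcl1 and Selp too, replicates 1 and 2 were well below the other 48 hr libraries yet above all 0 hr libraries.

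The other 8 of these genes rose by log2 fold changes of 4.26 to 5.88. C3, the complement component on which all activation routes converge, had 48 hr levels of 6.24, 5.88, 5.61, 8.33, 6.62 and 7.28 against -1.15, -0.51, 1.75, -0.13 and 1.97 at 0 hr (5.88 ± 0.78 SE, adjusted p = 6.97e-05), and here replicate 3 was the lowest of the 48 hr libraries. Serpina3n, a secreted serine protease inhibitor, changed by 5.39 ± 0.65 SE, adjusted p = 3.21e-05 and Upp1, which splits uridine, by 5.09 ± 0.67 SE, adjusted p = 6.92e-05. The LPS co-receptor Cd14 rose from 2.43, 2.33, 1.71, 1.90 and 1.26 to 5.57, 3.52, 8.49, 8.68, 8.64 and 8.52 (5.08 ± 0.83 SE, adjusted p = 0.00049), and the urokinase receptor Plaur changed by 4.61 ± 0.83 SE, adjusted p = 0.00116. Steap4, a membrane metalloreductase, changed by 4.85 ± 0.95 SE, adjusted p = 0.00214. Ackr1, a decoy chemokine receptor known from venular ECs, was already detected at 0 hr (4.29, 5.58, 6.02, 6.09 and 5.89) and reached 9.12, 7.70, 11.33, 11.67, 10.66 and 11.37 (4.60 ± 0.81 SE, adjusted p = 0.000915). Ch25h, which makes 25-hydroxycholesterol, changed by 4.26 ± 0.71 SE, adjusted p = 0.000584, with 159 bases of exon shared with an antisense gene. The calls of all 12 genes held whichever of the 11 libraries was left out.

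**Figure D2:**
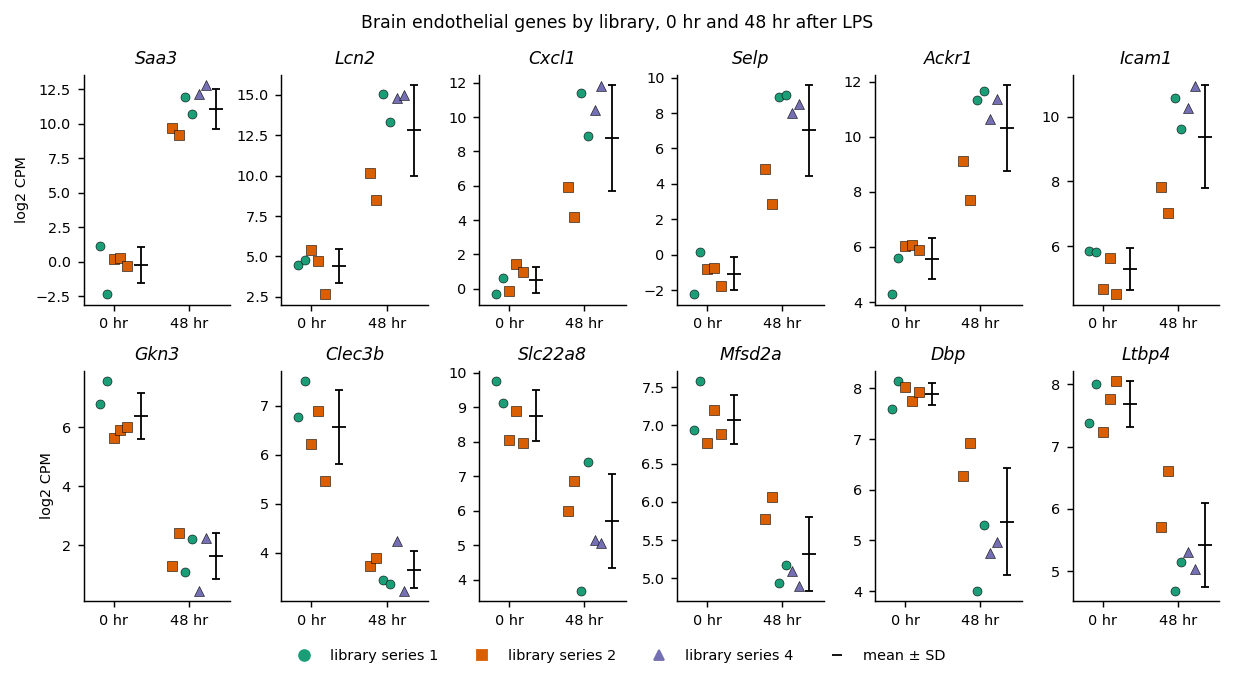
Levels (log2 CPM) of 12 genes in each 0 hr and 48 hr brain library, with marker shape and colour for library series and the mean ± SD beside each group (n = 5 and 6). Most of these genes were chosen for having no overlap between the groups, in the upper row above and in the lower row below 0 hr. In the upper row the series 2 libraries (replicates 1 and 2) are the lowest of 48 hr.

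The 12 largest falls were taken by the same rule. Gkn3, a gastrokine known in brain as a marker of arterial ECs, had log2 CPM of 6.79, 7.56, 5.64, 5.90 and 6.01 at 0 hr and 1.30, 2.41, 1.10, 2.22, 0.46 and 2.25 at 48 hr (-4.46 ± 0.92 SE, adjusted p = 0.00313), and replicates 1 and 2 were not set apart from the others. Clec3b, which encodes the plasminogen-binding protein tetranectin, went from 6.76, 7.50, 6.22, 6.89 and 5.47 to 3.74, 3.90, 3.45, 3.37, 4.25 and 3.23 (-3.07 ± 0.47 SE, adjusted p = 0.000256). The organic anion transporter Slc22a8 (OAT3), which clears anions from brain, went from 9.75, 9.13, 8.05, 8.88 and 7.97 to 5.98, 6.87, 3.68, 7.42, 5.16 and 5.06 (-2.57 ± 0.52 SE, adjusted p = 0.00297), lowest in replicate 3. The secreted factors Cytl1 and Angptl2 fell by 2.93 and 2.78 on the log2 scale, the matrix proteins Fbln7 and Ltbp4 by 2.61 and 2.01, and the vasoactive peptide gene Edn3 by 2.07. Among enzymes, the steroid-reducing Akr1c14 fell by 2.74, the hydrolase Cmbl by 2.25 and the epoxide hydrolase Ephx1 by 1.92 on that scale. Dbp, a clock output factor, went from 7.59, 8.14, 8.04, 7.76 and 7.93 to 6.26, 6.92, 4.01, 5.31, 4.75 and 4.96 (-2.15 ± 0.36 SE, adjusted p = 0.00052; 539 bases of its exons overlap an antisense gene). All 12 calls held whichever library was left out, with adjusted p from 0.00017 (Ltbp4) to 0.0125 (Edn3).

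Acute-phase genes, which encode plasma proteins that change in inflammation, were the list with the largest share of risen members: 23 of 27 members tested rose against 8.11% and 6.12% of all genes tested, and the median log2 fold change was 4.85 (0.02 over all genes tested). Because 6 members had no read in any 0 hr library, the median was also taken with those at their lower bound, which gave 4.41. The summed level of the list was 242 to 450 CPM at 0 hr and 3200, 1753, 43287, 15815, 39903 and 49388 CPM at 48 hr, so replicates 1 and 2 were the lowest. Saa1, another serum amyloid A gene, changed by 7.67 ± 1.14 SE, adjusted p = 0.000184 and the haemoglobin scavenger haptoglobin (Hp) by 5.21 ± 0.73 SE, adjusted p = 0.000104. Hp had 48 hr levels of 5.07, 4.12, 3.95, 4.88, 5.16 and 4.19 against at most 0.74 at 0 hr, and its lowest 48 hr value was in replicate 3. Serpina3f, Lrg1 (a secreted leucine-rich glycoprotein) and Timp1 (an inhibitor of matrix metalloproteinases) changed by 7.79 ± 1.34 SE, adjusted p = 0.000744, 3.11 ± 0.68 SE, adjusted p = 0.00484 and 3.63 ± 0.74 SE, adjusted p = 0.0031. With replicates 1 and 2 left out, 23 members rose, with a median of 5.85, and with library series 1 and 2 only 17 rose, with a median of 4.50.

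Markers of neutrophils and monocytes moved with these genes, and their part in the result was not tested. Of 17 neutrophil markers tested 12 rose (median log2 fold change 2.66); Lcn2 made up most of the summed level of that list, and without it the sum was 8.83 to 68.2 CPM at 0 hr and 67.1 to 263 CPM at 48 hr. Of this list Ly6g, Elane and Mpo were at most 1.00, 0.376 and 0.376 CPM at 48 hr, each with at least 1 library at 0, while S100a8 rose from 2.00–22.2 to 28.3–100 CPM. Raw counts of Cxcr2 went from 0, 0, 7, 3 and 4 at 0 hr to 149, 42, 1, 70, 2 and 24 at 48 hr. Those of Trem1 went from 0, 1, 0, 0 and 2 to 48, 28, 8, 9, 4 and 17. Of 18 monocyte and macrophage markers 15 rose (median 2.60), with a sum without Cd14 of 25.2 to 89.7 CPM at 0 hr and 75.7 to 336 CPM at 48 hr. The monocyte sum was highest in replicates 1 and 2 (335.5 and 292.7 CPM) and the neutrophil sum in replicates 1, 2 and 7 (263.4, 194.8 and 194.6 CPM). Replicates 1 and 2 were the libraries in which Lcn2, Saa3, Cxcl1 and Selp were lowest.

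**Figure D3:**
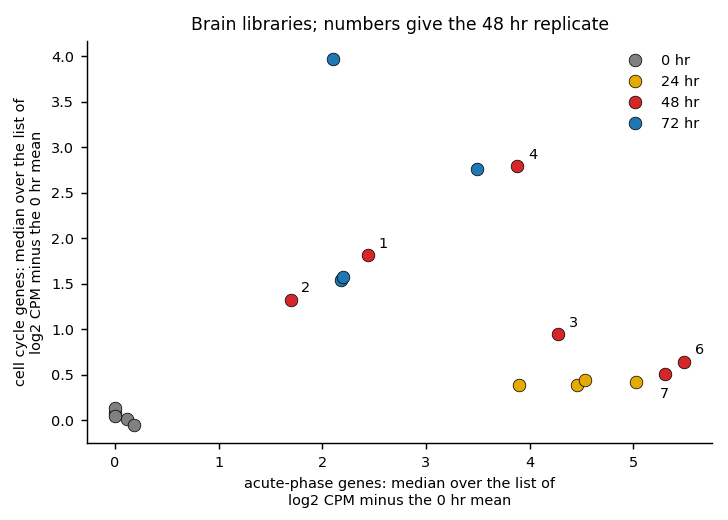
Each point is 1 brain library at 0, 24, 48 or 72 hr, placed by the median over the acute-phase list (x axis) and over the cell cycle list (y axis) of its log2 CPM minus the 0 hr mean of each gene; numbers give the 48 hr replicate. Replicates 3, 6 and 7 lie at 4.27 to 5.49 and 0.51 to 0.94, near the 24 hr libraries, replicates 1 and 2 at 2.44 and 1.69 and at 1.82 and 1.32, near 2 of the 72 hr libraries, and replicate 4 is high on both axes (3.88 and 2.79).

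Chemokines and their receptors rose in 12 of 30 members tested and fell in 1, with a median log2 fold change of 2.41 (19 rose and 2 fell without replicates 1 and 2, and 8 rose with library series 1 and 2 only). Besides Cxcl1, the neutrophil chemokine Cxcl2 went from -3.36, -3.36, -2.49, -2.19 and -2.21, the level of no read or of few reads, to 1.67, 0.02, 8.56, 4.49, 7.73 and 8.38 (8.95 ± 1.86 SE, adjusted p = 0.00335). The T cell and monocyte chemokine Ccl5 went from -1.15, -1.32, 0.24, -0.34 and -0.80 to 4.25, 3.76, 5.93, 3.83, 6.97 and 7.14 (6.01 ± 1.00 SE, adjusted p = 0.000562), and the monocyte chemokine Ccl2 from 1.22, 1.44, -0.28, -0.34 and -0.16 to 2.71, 1.78, 5.81, 5.50, 6.90 and 6.10 (4.11 ± 0.99 SE, adjusted p = 0.00846). These 3 genes did not overlap between the groups, although Ccl2 in replicate 2 was only just above the 0 hr libraries. The interferon-inducible Cxcl10 did not pass the test (2.44 ± 1.08 SE, adjusted p = 0.125); its 48 hr levels ran from 1.95 to 8.74 and overlapped with 0 hr levels of 1.35 to 2.95. Cxcl12, a homeostatic chemokine of arterial ECs, was the member that fell (-1.15 ± 0.35 SE, adjusted p = 0.0307), a call lost without any of 4 libraries (0 hr replicates 2, 4 and 5 and 48 hr replicate 3).

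In the NF-kappaB system 15 of 22 members tested rose, with a median of 1.37. The largest rises were in inhibitors and modulators that NF-kappaB itself induces. Nfkbiz, an atypical nuclear IkappaB protein, went from 1.91, 2.33, 2.95, 2.12 and 2.94 to 4.50, 4.62, 7.77, 5.70, 7.73 and 7.90 (3.59 ± 0.71 SE, adjusted p = 0.00235), and the ubiquitin-editing enzyme A20 (Tnfaip3) from 2.61, 3.07, 1.92, 2.31 and 2.15 to 4.21, 3.27, 7.94, 5.57, 7.19 and 7.79 (3.53 ± 0.75 SE, adjusted p = 0.00415). The kinase Ikbke changed by 2.75 ± 0.57 SE, adjusted p = 0.00335. Each of these genes was without overlap between groups. Nfkbia (IkappaB-alpha) had a log2 fold change of 0.93 ± 0.42 SE, adjusted p = 0.134, with 48 hr levels of 7.67, 7.41, 10.74, 9.16, 10.59 and 10.98 that were below the 0 hr mean of 8.15 in replicates 1 and 2 and above it in the others.

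The promoters of Cxcl1, Cxcl2 and Tnfaip3 are shown because these genes rose together and hold the kappaB motif that NF-kappaB dimers are known to bind. Each line gives the 200 bases before the transcription start on the gene's strand, from RefSeq on GRCm38.p6, and capitals mark a match on either strand to the kappaB motif, taken as GGG, 2 bases of any kind, TT, 1 base of any kind and CC. The matches start 89 and 71 bases before the start of Cxcl1 (chr5:90891045-90891244, plus strand), 97 and 78 bases before that of Cxcl2 (chr5:90903699-90903898, plus strand) and 12 bases before 1 start of Tnfaip3 (chr10:19015411-19015610, minus strand). Another start of Tnfaip3 (chr10:19011964-19012163, minus strand) had no match in its window and is not shown.
Cxcl1: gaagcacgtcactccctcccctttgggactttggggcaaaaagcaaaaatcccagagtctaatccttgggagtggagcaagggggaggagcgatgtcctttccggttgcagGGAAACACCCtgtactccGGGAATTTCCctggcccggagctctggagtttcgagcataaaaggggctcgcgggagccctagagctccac
Cxcl2: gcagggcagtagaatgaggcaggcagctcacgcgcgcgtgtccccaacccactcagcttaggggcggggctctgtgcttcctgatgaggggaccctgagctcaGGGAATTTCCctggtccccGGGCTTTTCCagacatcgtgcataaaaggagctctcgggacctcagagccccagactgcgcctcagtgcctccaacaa
Tnfaip3: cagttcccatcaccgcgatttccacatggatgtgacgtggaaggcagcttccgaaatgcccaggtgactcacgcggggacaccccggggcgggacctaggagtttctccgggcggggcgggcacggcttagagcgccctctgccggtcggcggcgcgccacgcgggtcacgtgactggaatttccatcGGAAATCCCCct
The motif was searched in windows of 300 bases (250 before to 50 after a start). It was present in 12 of 24 windows (50%) of 18 NF-kappaB list genes and in 8 of 27 windows (29.6%) of 24 chemokine list genes that had a window, against 4.79% of all 32851 windows and 5.48% of those of the genes tested. Of the 12 largest rises 11 had a window, and 3 of their 13 windows held it (Cxcl1, Serpina3n and Steap4), as did none of the 13 windows of the 12 largest falls. The STAT motif TTCNNNGAA was found in 9 of 30 acute-phase windows (30%) and in 8.30% of all windows. A match describes letters in a window and is no evidence that a factor is bound there.

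Receptors upstream of these factors were next. In the TLR4 list 6 of 14 members tested rose; besides Cd14 these included Tlr2, the receptor for bacterial lipoproteins (2.91 ± 0.55 SE, adjusted p = 0.00157), the LPS-binding protein Lbp (2.30 ± 0.56 SE, adjusted p = 0.00956) and Tlr4 (1.15 ± 0.26 SE, adjusted p = 0.00553). Lbp stood at 5.55, 4.58, 8.72, 8.94, 9.33 and 9.66 at 48 hr against 6.10, 5.52, 4.85, 5.57 and 4.29 at 0 hr, so that replicates 1 and 2 were within the 0 hr range and the other 4 libraries above it. Ly96 (MD-2), the partner of TLR4 that holds LPS, had a log2 fold change of 0.02 ± 0.33 SE, adjusted p = 0.974. Among TNF and IL-1 ligands and receptors 11 of 25 members tested rose and 1 fell. Tnf had no read in any 0 hr library and was at 0.00, -0.24, 2.81, 0.85, 1.33 and 2.17 at 48 hr, at least 88.4-fold higher when 0 hr is set to 3 counts over the group (adjusted p = 0.0019). The decoy receptor Il1r2 and the receptor antagonist Il1rn, which both restrain IL-1, changed by 4.58 ± 0.66 SE, adjusted p = 0.000137 and 4.06 ± 1.16 SE, adjusted p = 0.0223, the second lost without 0 hr replicates 1, 2 or 4. Il1r1, the signalling IL-1 receptor, had a log2 fold change of 0.91 ± 0.37 SE, adjusted p = 0.0976. Tnfrsf11b (osteoprotegerin), a decoy receptor for RANKL, was the member that fell (-1.97 ± 0.47 SE, adjusted p = 0.00779).

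Of the IL-6 family list 5 of 18 members tested rose and 1 fell. Il6 changed by 5.80 ± 1.51 SE, adjusted p = 0.0137, with 48 hr levels of -1.47, -1.92, 5.66, 2.35, 5.39 and 5.45 against at most -1.15 at 0 hr, so replicates 1 and 2 overlapped with 0 hr. Socs3, a feedback inhibitor that STAT3 induces, went from 2.98, 3.51, 2.21, 3.02 and 2.78 to 4.16, 4.06, 8.35, 6.25, 8.29 and 8.26 without overlap (3.46 ± 0.75 SE, adjusted p = 0.00453). Stat3 itself and the receptors Osmr and Il6ra changed by 1.21 ± 0.38 SE, adjusted p = 0.034, 1.56 ± 0.49 SE, adjusted p = 0.0359 and 1.08 ± 0.35 SE, adjusted p = 0.0423, with the calls lost in 7, 6 and 8 of the 11 fits that leave out 1 library. The call of Il6 was lost without 0 hr replicate 2 or 48 hr replicate 3.

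Leukocyte adhesion molecules showed 9 of 19 members tested rising and 2 falling. E-selectin (Sele), which is made by activated ECs, had log2 CPM of -3.36, 0.86, -3.36, -1.24 and -1.57 at 0 hr and 1.99, -0.17, 7.65, 5.83, 5.96 and 6.62 at 48 hr (6.06 ± 1.32 SE, adjusted p = 0.00473); replicate 2 overlapped with 0 hr replicate 2. Icam1, the ligand of the leukocyte integrin LFA-1, went from 5.86, 5.84, 4.70, 5.66 and 4.53 to 7.83, 7.04, 10.58, 9.60, 10.27 and 10.95 without overlap (3.85 ± 0.63 SE, adjusted p = 0.000461). Madcam1, a ligand of a lymphocyte homing integrin, changed by 5.04 ± 0.87 SE, adjusted p = 0.000744 from levels at or near no read. Vcam1, the ligand of the integrin VLA-4, changed by 1.14 ± 0.32 SE, adjusted p = 0.0196; its 48 hr levels (9.08, 8.31, 8.20, 9.38, 7.62 and 8.82) overlapped with 0 hr levels (8.08, 7.84, 7.21, 7.73 and 6.60), and replicates 1 and 2 were not the lowest. Alcam, known for T cell passage across brain vessels, fell (-1.36 ± 0.33 SE, adjusted p = 0.00988).

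In the complement list 11 of 22 members tested rose, with a median of 1.32 (14 rose and 1 fell without replicates 1 and 2). C1ra, a protease of the C1 complex, went from 3.16, 3.18, 3.07, 3.35 and 2.97 to 5.64, 4.99, 6.48, 7.36, 6.99 and 7.74 without overlap (3.22 ± 0.41 SE, adjusted p = 4.92e-05). The alternative pathway component Cfb changed by 4.81 ± 1.08 SE, adjusted p = 0.00554 and C4b by 1.34 ± 0.34 SE, adjusted p = 0.0113, the latter not past the threshold without replicates 1 and 2. The C1q genes of this list are also markers of microglia, of which 10 of 22 members tested rose. The sum of those markers was 258 to 506 CPM at 0 hr and 930, 750, 220, 647, 272 and 316 CPM at 48 hr, highest in replicates 1 and 2, and their part in the result was not tested. Among them the microglial P2ry12 was at 3.18 to 11.0 CPM at 0 hr and 0.696 to 8.41 CPM at 48 hr, and C1qa at 9.18 to 29.5 CPM and 8.35 to 127 CPM.

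Genes of antigen presentation moved in both directions. In MHC class I presentation 8 of 22 members tested rose. The class I heavy chain H2-K1 went from 8.66, 8.65, 7.70, 7.83 and 7.53 to 9.34, 9.40, 10.30, 9.80, 10.70 and 10.86 without overlap (1.71 ± 0.28 SE, adjusted p = 0.000445), and H2-Q6, H2-Q7 and H2-Q4 changed by 2.53 ± 0.49 SE, adjusted p = 0.00191, 2.16 ± 0.38 SE, adjusted p = 0.000914 and 1.72 ± 0.42 SE, adjusted p = 0.00969. These H2-Q genes are close copies, among which reads could be split. B2m, their shared light chain, had a log2 fold change of 0.63 ± 0.24 SE, adjusted p = 0.0736. Of the 9 class II members tested 4 fell and 1 rose. H2-Eb1, a class II beta chain, went from 4.10, 3.63, 3.54, 3.43 and 3.39 to 1.95, 1.45, 0.66, 2.16, 1.15 and 1.62 (-2.16 ± 0.31 SE, adjusted p = 0.000135), and H2-Aa and H2-Ab1 changed by -1.61 ± 0.36 SE, adjusted p = 0.00508 and -1.13 ± 0.33 SE, adjusted p = 0.0242; in both genes replicates 6 and 7 were highest at 48 hr, and replicate 7, for H2-Ab1 also replicate 6, overlapped with 0 hr. H2-Ab1 was not past the threshold without 0 hr replicate 1 or without 48 hr replicates 1 and 2. The protease Ctss, which trims the class II invariant chain, rose (1.60 ± 0.30 SE, adjusted p = 0.00168). Class II genes are also known from B cells and macrophages: the B cell gene Cd79a was at 2.15 to 6.59 CPM at 0 hr and 0.417 to 0.989 CPM at 48 hr, and its part in the result was not tested.

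Of 40 interferon-stimulated genes 3 rose, 7.50% against 8.11% of all genes tested, with a median of 0.15. They were the DNA sensor Ifi204 (2.87 ± 0.60 SE, adjusted p = 0.00363), Zbp1, a sensor of Z-form nucleic acids (2.29 ± 0.64 SE, adjusted p = 0.0194), and Ifitm3, which blocks viral entry (1.54 ± 0.41 SE, adjusted p = 0.0149). Ifit1 had a log2 fold change of -0.44 ± 0.43 SE, adjusted p = 0.511. Of 13 guanylate-binding proteins and related GTPases 2 rose (15.4%), Gbp6 (3.09 ± 0.80 SE, adjusted p = 0.013) and Gbp4 (1.56 ± 0.53 SE, adjusted p = 0.0472), while Gbp2 had 1.19 ± 0.58 SE, adjusted p = 0.161. Calls were lost in 8 of the 11 fits without 1 library for Gbp4, in 3 for Zbp1 and in 1 each for Gbp6 and Ifitm3. At 24 hr, against the same 0 hr libraries, 10 interferon-stimulated genes and 9 of these GTPases were higher.

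Metallothioneins, which bind zinc and copper, divided the 48 hr libraries. Mt2 stood at 7.35, 6.51, 8.20, 7.52 and 7.42 at 0 hr and at 7.63, 7.71, 12.42, 8.32, 12.72 and 12.50 at 48 hr, and Mt1 at 8.17, 7.63, 8.73, 8.58 and 8.25 and at 8.47, 8.39, 12.02, 8.66, 12.20 and 12.43. Replicates 3, 6 and 7 were thus far above 0 hr in both genes, and replicates 1, 2 and 4 were within or next to the 0 hr range. The log2 fold changes were 3.34 ± 0.94 SE, adjusted p = 0.0206 and 2.43 ± 0.72 SE, adjusted p = 0.027, with the calls lost without 0 hr replicates 1 or 2 or 48 hr replicate 3, and within series 2 alone the signs turned (-0.11 and -0.12). Exons of Mt2 overlap an antisense gene over 432 bases. The zinc importer Slc39a14 changed by 1.38 ± 0.38 SE, adjusted p = 0.0176, a call lost without 0 hr replicate 1.

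Genes of regulated cell death rose in 6 of 24 members. Ripk3, the kinase that starts necroptosis, went from 0.21, 0.69, -0.43, -1.11 and -0.30 to 1.93, 1.13, 4.12, 3.59, 4.12 and 3.95 without overlap (3.13 ± 0.35 SE, adjusted p = 1.36e-05), Mlkl, the protein that executes it, changed by 1.74 ± 0.48 SE, adjusted p = 0.0179, and Casp4, an intracellular LPS receptor in the mouse also called caspase-11, by 2.99 ± 0.66 SE, adjusted p = 0.0051. The call of Mlkl was lost without 0 hr replicate 1. Casp6 had a log2 fold change of -0.24 ± 0.23 SE, adjusted p = 0.503.

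Of 17 prostaglandin genes 2 rose and 3 fell (11.8% and 17.6%, against 8.11% and 6.12% of all genes tested). Ptgs2 (COX-2), the inducible enzyme that starts prostaglandin synthesis, went from 3.64, 4.62, 2.69, 3.41 and 2.90 to 4.80, 4.29, 8.14, 7.32, 7.23 and 8.41 (3.02 ± 0.70 SE, adjusted p = 0.00691), with replicate 2 within the 0 hr range and replicate 1 just above it. The terminal enzyme Ptges had a log2 fold change of 1.31 ± 0.51 SE, adjusted p = 0.0812 and the receptor Ptger4 one of 1.14 ± 0.32 SE, adjusted p = 0.0197, a call lost without 0 hr replicate 1 or 2 or 48 hr replicate 3. Ptgds, the prostaglandin D synthase that is also known from meninges and choroid plexus, fell (-1.79 ± 0.38 SE, adjusted p = 0.00431). In antioxidant defence 7 of 21 members tested rose: the extracellular glutathione peroxidase Gpx3 changed by 3.08 ± 0.47 SE, adjusted p = 0.000241, haem oxygenase Hmox1 by 1.43 ± 0.39 SE, adjusted p = 0.0181 and the regulator Nfe2l2 (NRF2) by 1.28 ± 0.40 SE, adjusted p = 0.0331. The calls of Hmox1 and Nfe2l2 were lost in 1 and 6 of the 11 fits without 1 library.

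Barrier genes of the brain endothelium were lower where most of their calls lay. Of 46 blood-brain barrier genes 11 fell and 3 rose (23.9% and 6.52%, against 6.12% and 8.11% of all genes tested), and the median log2 fold change was -0.53. Without replicates 1 and 2, 20 fell and 4 rose, where 2638 and 2965 of all 18992 genes tested did. With library series 1 and 2 only, 6 fell, where 341 of all 19698 genes tested did. The median was -0.98 within series 1 and -0.09 within series 2. Mfsd2a, the lipid transporter that restrains vesicle transport across brain ECs, went from 6.94, 7.58, 6.78, 7.21 and 6.89 to 5.78, 6.07, 4.94, 5.17, 5.09 and 4.90 (-1.61 ± 0.29 SE, adjusted p = 0.00123) without overlap. Spock2, a matrix proteoglycan, went from 11.00, 11.37, 10.57, 11.13 and 11.03 to 9.56, 10.13, 8.40, 8.51, 7.80 and 8.28, also without overlap (-1.76 ± 0.34 SE, adjusted p = 0.00214). In both genes replicates 1 and 2 were the least lowered. Slco1c1, which carries thyroid hormone, was at 9.37, 9.84, 8.52, 8.94 and 9.14 at 0 hr and at 9.14, 9.29, 3.37, 8.21, 3.49 and 3.62 at 48 hr. It was thus more than 4 log2 units below every 0 hr library in replicates 3, 6 and 7. In replicates 1, 2 and 4 it was near or within the 0 hr range, and the group difference did not pass the test (-1.10 ± 0.79 SE, adjusted p = 0.355). Without replicates 1 and 2 it did (-3.30, adjusted p = 0.00618). These fold changes come from fitted counts with a library series term and are not differences between the mean levels listed. The amino acid carrier Slc7a5 was lower in every 48 hr library (10.05, 9.95, 9.22, 9.51 and 9.39 against 8.59, 9.03, 7.39, 8.49, 6.58 and 7.01), with an adjusted p of 0.0503.

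Other barrier genes did not pass the test. The glucose carrier Slc2a1 (GLUT1) had a log2 fold change of -0.52 ± 0.22 SE, adjusted p = 0.113, with 0 hr levels of 11.48, 11.33, 10.31, 10.70 and 10.20 and 48 hr levels of 9.83, 9.98, 11.12, 10.66, 10.59 and 11.11, highest in replicates 3 and 7. The efflux pumps Abcb1a (P-glycoprotein) and Abcg2 had -0.61 ± 0.34 SE, adjusted p = 0.219 and -0.31 ± 0.22 SE, adjusted p = 0.363. The junction genes Ocln and Tjp1 had -0.56 ± 0.27 SE, adjusted p = 0.152 and -0.11 ± 0.24 SE, adjusted p = 0.784, and in the tight junction list 2 of 24 members tested rose and 1 fell. Those list shares (8.33% and 4.17%) were near the 8.11% and 6.12% of all genes tested. Cav1, which coats caveolae, and Plvap, a protein of fenestrae, had -0.53 ± 0.53 SE, adjusted p = 0.519 and -0.09 ± 0.43 SE, adjusted p = 0.91. Exons of Icam1, Ikbke, H2-Q4, Ptger4, Lef1, Notum, Adamts9, Ndufa13, Ccnd2 and Slc2a1 overlap antisense genes over 105 to 1805 bases, which makes their values uncertain as for Selp. A p that misses the threshold does not show that these levels were alike. Of 35 pan-endothelial genes 5 rose and 1 fell: Ecscr, an EC surface protein that regulates migration, went from 5.40, 6.29, 4.58, 4.74 and 4.40 to 6.53, 6.15, 8.68, 8.80, 8.54 and 8.83 (2.39 ± 0.31 SE, adjusted p = 5.11e-05), and Clec14a, the sialomucin Emcn and the adhesion molecule Pecam1 changed by 1.28 ± 0.40 SE, adjusted p = 0.0329, 1.11 ± 0.27 SE, adjusted p = 0.0095 and 0.71 ± 0.20 SE, adjusted p = 0.0189, with calls lost in 4, 1 and 2 of the 11 fits without 1 library. Among the risen barrier genes Pglyrp1, which recognizes bacterial peptidoglycan, changed by 1.07 ± 0.29 SE, adjusted p = 0.0162, Ly6a by 0.76 ± 0.24 SE, adjusted p = 0.0383 and Ager, the receptor for advanced glycation products, by 1.91 ± 0.60 SE, adjusted p = 0.0343, with calls lost in 2, 8 and 5 of these fits.

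Signalling genes of brain vessels mostly fell where they passed the test. Of 29 Wnt pathway genes 6 fell and 1 rose. The Wnt effector Lef1 changed by -0.86 ± 0.19 SE, adjusted p = 0.00544, the Wnt inhibitor Sfrp1 by -1.35 ± 0.40 SE, adjusted p = 0.0246, and Notum and Nkd1, feedback inhibitors that Wnt signalling induces, by -1.79 ± 0.58 SE, adjusted p = 0.0415 and -1.05 ± 0.29 SE, adjusted p = 0.0177. Lef1 held in every fit without 1 library, Nkd1, Sfrp1 and Notum were lost in 1, 3 and 8 of them, and the Wnt targets Axin2 and Apcdd1 had -0.45 ± 0.23 SE, adjusted p = 0.179 and 0.52 ± 0.28 SE, adjusted p = 0.201. Of 29 Notch and arterial genes 5 fell and 1 rose. The Notch target Hey1 went from 6.33, 6.57, 5.82, 5.90 and 5.90 to 5.34, 5.42, 4.14, 3.64, 4.06 and 4.07 without overlap (-1.47 ± 0.32 SE, adjusted p = 0.00415), and the alkaline phosphatase Alpl, a capillary and arterial marker in brain, changed by -1.77 ± 0.40 SE, adjusted p = 0.00616. In the angiopoietin and VEGF axis 5 of 27 members tested rose and 4 fell (18.5% and 14.8%, against 8.11% and 6.12% of all genes tested). Angpt2, which antagonizes the receptor Tek (Tie2), changed by 1.57 ± 0.47 SE, adjusted p = 0.0276, a call lost in 4 of the fits without 1 library, and Tek had -0.64 ± 0.41 SE, adjusted p = 0.29. The VEGF receptor Flt1 fell (-0.76 ± 0.22 SE, adjusted p = 0.0256), lost without 0 hr replicate 2, and Kdr had -0.07 ± 0.28 SE, adjusted p = 0.88. Adrenomedullin (Adm), a vasodilator that tightens EC junctions, went from 5.00, 5.04, 3.78, 3.36 and 2.45 to 5.15, 5.02, 7.35, 6.99, 7.47 and 7.77 (2.13 ± 0.36 SE, adjusted p = 0.000616).

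Of 23 coagulation and fibrinolysis genes 6 rose and 2 fell (26.1% and 8.70%, against 8.11% and 6.12% of all genes tested), with a median of 0.46. The receptor for activated protein C, Procr, changed by 1.84 ± 0.41 SE, adjusted p = 0.00553, and coagulation factor F10, also a macrophage gene, by 3.13 ± 0.64 SE, adjusted p = 0.00313. Thrombomodulin (Thbd), which turns thrombin toward protein C activation, fell (-1.25 ± 0.29 SE, adjusted p = 0.00729), and von Willebrand factor (Vwf) had 0.97 ± 0.39 SE, adjusted p = 0.09. Of 31 genes of collagen, laminin and basement membrane 3 rose and 2 fell, shares near the 8.11% and 6.12% of all genes tested, and the median was -0.25. The list median was -0.75 within series 1 and 0.05 within series 2. Without 48 hr replicates 1 and 2, 3 members rose and 10 fell, with a median of -0.79. In that setting 2965 genes rose and 2638 fell among all 18992 tested. The basement membrane collagens Col4a1 and Col4a2 had close levels in all 48 hr libraries. Col4a1 went from 6.73, 6.62, 6.68, 6.88 and 7.33 to 9.06, 9.18, 9.60, 9.00, 9.25 and 9.81 (2.34 ± 0.36 SE, adjusted p = 0.000263) and Col4a2 from 5.90, 5.93, 6.38, 6.59 and 7.00 to 8.51, 8.40, 8.58, 8.40, 8.31 and 8.84 (2.09 ± 0.34 SE, adjusted p = 0.000392), with replicates 1 and 2 within the range of the other 48 hr libraries. Of 25 matrix proteases and inhibitors 9 rose and 2 fell. Mmp3 (stromelysin) stood at 2.38, 0.89, 7.79, 8.16, 7.84 and 8.72 at 48 hr against at most -0.54 at 0 hr (6.90 ± 1.29 SE, adjusted p = 0.00149), Mmp12 at -2.01, -2.47, 6.34, 2.94, 7.13 and 7.16 against at most -2.48 (7.31 ± 1.72 SE, adjusted p = 0.0075), and Adamts9 changed by 3.12 ± 0.70 SE, adjusted p = 0.00553. In replicates 1 and 2 Mmp12 was barely above the level of no read. Mmp8, a neutrophil collagenase, changed by 4.06 ± 0.92 SE, adjusted p = 0.00595.

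Cell cycle genes also rose in most members: 34 of 49 members tested rose and 1 fell, with a median of 1.72. The proliferation gene Mki67 (Ki-67) stood at -0.12, -1.74, 0.34, 1.32 and 1.09 at 0 hr and at 4.69, 4.45, 0.55, 4.19, -0.33 and -0.31 at 48 hr (3.20 ± 0.74 SE, adjusted p = 0.00705). The DNA topoisomerase Top2a stood at -0.32, -0.31, -0.43, 0.49 and 0.65 and at 4.19, 3.31, -0.59, 4.67, -0.03 and -0.51 (3.23 ± 0.75 SE, adjusted p = 0.00725), and the mitotic kinase Cdk1 at 0.21, -1.32, -0.28, 0.79 and 0.72 and at 4.51, 3.53, 0.66, 5.31, -0.15 and 0.39 (3.54 ± 0.80 SE, adjusted p = 0.00591). In all 3 genes replicates 1, 2 and 4 were far above every 0 hr library, and replicates 3, 6 and 7 were within the 0 hr range or, for Top2a, just below it. In the kinases Aurkb and Bub1 replicates 1, 2 and 4 were again the highest (3.50 ± 0.86 SE, adjusted p = 0.00991 and 4.08 ± 0.98 SE, adjusted p = 0.00852). Without replicates 1 and 2, 19 members rose and 1 fell, the median was 1.24, and Mki67, Top2a, Aurkb and Bub1 no longer passed the test (log2 fold changes of 1.91 to 2.61, adjusted p of 0.0725 to 0.123), while Cdk1 did (2.88, adjusted p = 0.0373). The G1 cyclin Ccnd2 fell without overlap (-1.14 ± 0.27 SE, adjusted p = 0.00816). The summed microglia list stood at 930, 750, 220, 647, 272 and 316 CPM at 48 hr, highest in replicates 1, 2 and 4, as were Mki67, Top2a and Cdk1. The summed monocyte markers were highest in replicates 1 and 2. The part of microglia and monocyte RNA in the result was not tested.

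The promoters of Mki67, Cdk1 and Top2a are shown because all 3 genes rose in the same libraries and hold the cell cycle homology region (CHR), the element through which late cell cycle genes are known to be controlled. Each line gives the 200 bases before the start on the gene's strand (RefSeq, GRCm38.p6), and capitals mark TTTGAA on either strand. The matches start 116 and 98 bases before the start of Mki67 (chr7:135716380-135716579, minus strand), 71 and 15 bases before that of Cdk1 (chr10:69352913-69353112, minus strand) and 179 and 23 bases before that of Top2a (chr11:99024190-99024389, minus strand).
Mki67: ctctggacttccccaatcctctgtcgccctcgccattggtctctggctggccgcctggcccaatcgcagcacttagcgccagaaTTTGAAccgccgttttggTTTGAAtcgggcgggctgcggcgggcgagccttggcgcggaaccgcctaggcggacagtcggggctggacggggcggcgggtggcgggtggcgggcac
Cdk1: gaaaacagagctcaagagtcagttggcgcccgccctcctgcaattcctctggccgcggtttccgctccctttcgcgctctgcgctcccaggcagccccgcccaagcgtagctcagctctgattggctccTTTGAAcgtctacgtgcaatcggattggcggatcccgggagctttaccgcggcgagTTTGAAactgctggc
Top2a: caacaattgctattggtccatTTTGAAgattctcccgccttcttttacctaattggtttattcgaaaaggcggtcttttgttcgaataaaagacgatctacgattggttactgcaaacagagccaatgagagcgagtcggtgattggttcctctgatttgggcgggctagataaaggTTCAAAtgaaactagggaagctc
Of 44 windows of the 40 cell cycle genes that had one, 22 (50%) held the motif, against 17.9% of all windows and 12.4% of the windows of genes tested. Aurkb had no window. A motif of 6 letters is found often without any function, and these matches were not tested for one.

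Genes of protein synthesis, respiration and the clock followed. Of 78 cytosolic ribosomal protein genes 17 rose and 1 fell, with a median of 0.57 (1.17 within series 1 and 0.05 within series 2). Without replicates 1 and 2, 38 rose, and with library series 1 and 2 only 9 did. Rpl10 went from 3.14, 2.74, 2.55, 1.85 and 2.65 to 3.62, 3.71, 6.21, 4.70, 6.41 and 6.29 (2.12 ± 0.32 SE, adjusted p = 0.000201), Rps6 changed by 1.44 ± 0.39 SE, adjusted p = 0.0173 and Rpl27a was the member that fell (-0.73 ± 0.18 SE, adjusted p = 0.00916). Ribosomal protein genes have many near-identical processed copies, among which reads could be split, so these values are uncertain. Of 69 respiratory chain genes 13 fell, among them the complex I subunits Ndufa13 (-0.98 ± 0.19 SE, adjusted p = 0.00178) and Ndufs8 (-0.69 ± 0.22 SE, adjusted p = 0.034) and the ATP synthase subunit Atp5k (-0.74 ± 0.17 SE, adjusted p = 0.00643). The call of Ndufs8 was lost in 6 of the 11 fits without 1 library, that of Rps6 in 2 and that of the clock gene Nfil3 in 3. The median of that list was -0.25, and -0.10 without replicates 1 and 2, where 8 members fell; with library series 1 and 2 only 2 fell. In the circadian list 2 of 19 members tested rose and 5 fell: the activator Arntl (BMAL1) changed by 1.64 ± 0.38 SE, adjusted p = 0.00705 and the D-box repressor Nfil3 by 1.74 ± 0.48 SE, adjusted p = 0.0189, whereas the D-box factors Hlf and Dbp and the repressor Nr1d1 (REV-ERB-alpha) fell by 1.21, 2.15 and 0.85 on the log2 scale. The hour of day at which each library was taken is not in the labels.

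Markers of other brain cells were examined by list. Against 8.11% of all genes tested rising and 6.12% falling, of 39 neuron markers 2 fell (5.13%), of 20 astrocyte markers 1 rose and 3 fell, of 20 oligodendrocyte and precursor markers 3 fell, of 18 pericyte and smooth muscle markers 1 fell (5.56%), of 17 fibroblast and meningeal markers 2 rose and 5 fell, and of 14 choroid plexus and ependymal markers 4 fell. Without 48 hr replicates 1 and 2, 2638 of all 18992 genes tested fell. In that setting 11 oligodendrocyte and 5 pericyte markers fell (list medians -1.11 and -1.65), and 0 rose in either list. Of neuron, astrocyte, fibroblast and choroid plexus markers 3, 4, 5 and 5 fell there and 1, 2, 2 and 1 rose. With library series 1 and 2 only, 0 oligodendrocyte markers and 1 pericyte marker fell. The summed neuron markers stood at 14853 and 12325 CPM in 48 hr replicates 1 and 2 and at 5805, 2888, 3800 and 3702 CPM in replicates 3, 4, 6 and 7, with 4993 and 7295 CPM in the series 1 libraries of 0 hr and 15762 to 19064 CPM in those of series 2. The neuronal Snap25 was at 761 to 2743 CPM at 0 hr and 324 to 1179 CPM at 48 hr, and the astrocyte gene Gfap at 37.6 to 886 and 283 to 1667 CPM.

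The 48 hr group can be set beside the other times, which have fewer libraries (5 at 6 hr, 4 at 24 hr and 4 at 72 hr, against 6 at 48 hr), so their counts are not ranked. Against the same 0 hr libraries 810 genes were higher and 428 lower at 6 hr (4.21% and 2.23% of genes tested), 1254 and 897 at 24 hr (6.52% and 4.66%), 1560 and 1178 at 48 hr, and 573 and 105 at 72 hr (2.98% and 0.546%). The 6 hr counts include replicate 6, whose profile lay among the 0 hr libraries (-36.69 on the first principal component) against its label. These comparisons share the 0 hr libraries. Acute-phase genes rose in 22 members at 24 hr, 23 at 48 hr and 15 at 72 hr, with medians of 5.31, 4.85 and 3.08. Cell cycle genes rose in 3, 34 and 41 members, with medians of 0.56, 1.72 and 2.54, and blood-brain barrier genes fell in 23, 11 and 1, with medians of -0.89, -0.53 and -0.02. In a direct test of 48 hr against 24 hr in edgeR, 0 genes passed the threshold, 1717 (8.93%) had an unadjusted p under 0.05, and DESeq2 called 45 higher and 24 lower.

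**Figure D4:**
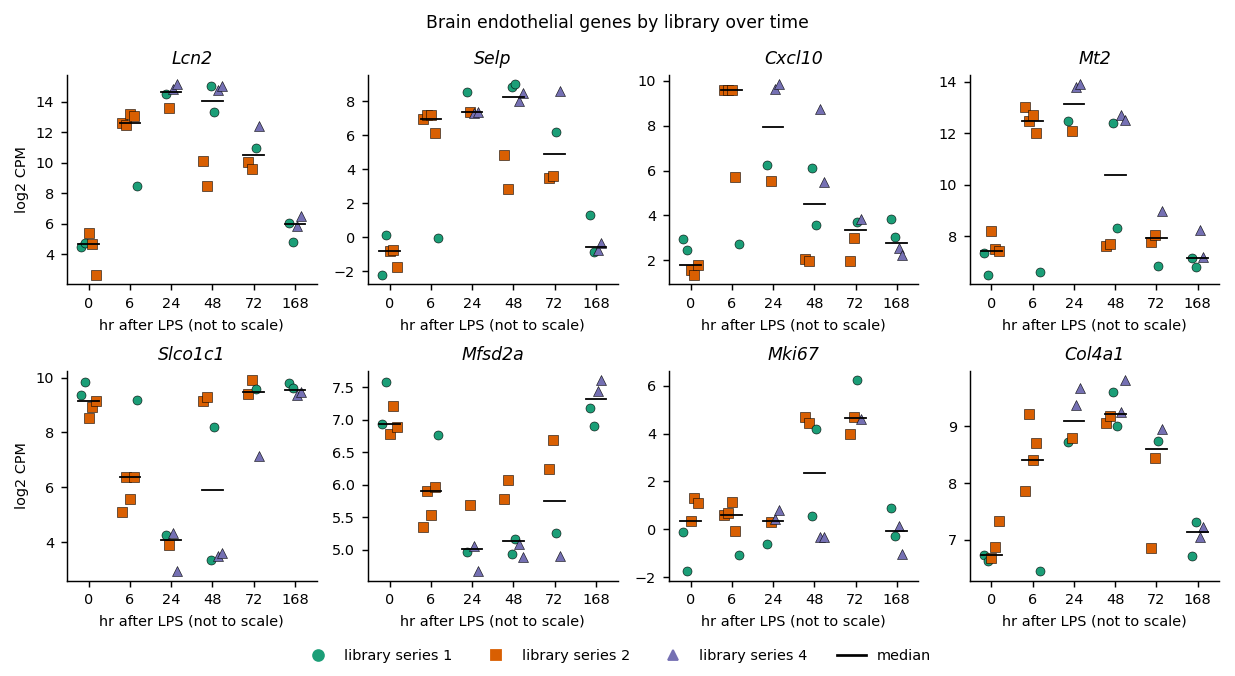
Levels (log2 CPM) of 8 genes in each brain library at 0, 6, 24, 48, 72 and 168 hr after LPS (times not to scale), with markers for library series and a line for the median of each time. At 48 hr Mt2, Slco1c1 and Mki67 fall into 2 bands, with the median between them, whereas Col4a1 and Mfsd2a do not. At 6 hr, 1 library of series 1 lies apart from the others in most panels.

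The same 48 hr libraries can be followed between those times. Slco1c1 was at 2.95 to 4.34 in the 24 hr libraries and at 7.14 to 9.90 in the 72 hr libraries, and the 48 hr libraries took values in both ranges (3.37, 3.49 and 3.62, and 8.21, 9.14 and 9.29). Mki67 was at -0.59 to 0.82 at 24 hr and at 3.97 to 6.21 at 72 hr, and here too replicates 3, 6 and 7 (0.55, -0.33 and -0.31) were near the former and replicates 1, 2 and 4 (4.69, 4.45 and 4.19) within the latter. Mt2 was at 12.10 to 13.91 at 24 hr and at 6.86 to 9.00 at 72 hr. Among the 48 hr libraries, replicate 4 alone paired high Mki67 and Slco1c1 with high Lcn2 (13.31) and Selp (9.03).

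The response in brain was then set against that of heart ECs from the same series, with 5 libraries at 0 hr and 6 at 48 hr, as an interaction in 1 fit of both tissues. The response was higher in brain for 198 genes (0.994% of 19924 tested) and lower for 210 (1.05%), and 191 of these 408 genes also passed the test in brain alone. Blocking on the animal codes that brain and heart libraries share gave 221 higher and 151 lower, so that the share higher in brain was 59.4% in place of 48.5%. Of cell cycle genes 32 members were higher in brain, and the median log2 fold change in heart was -1.13. Mki67 in heart libraries went from 6.71, 6.08, 5.18, 6.57 and 6.51 at 0 hr to 4.08, 5.84, 3.54, 4.27, 4.17 and 4.34 at 48 hr, so its level at 0 hr was far higher in heart than in brain; the brain minus heart difference was 4.70 ± 0.95 SE, adjusted p = 0.00385. Acute-phase genes rose in both tissues (19 members in heart, median 3.92), and in that list 1 member had a higher and 1 a lower response in brain. Of the 12 genes with the largest rises, C3 (3.41 ± 0.79 SE, adjusted p = 0.0123) and Upp1 (2.84 ± 0.79 SE, adjusted p = 0.0412) had a higher response in brain.

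Among other genes with a larger rise in brain were the apelin gene Apln, a peptide of tip cells (4.22 ± 0.88 SE, adjusted p = 0.00526), Ripk3 (2.47 ± 0.47 SE, adjusted p = 0.0026), Ecscr (2.15 ± 0.37 SE, adjusted p = 0.00132), the beta-tubulin Tubb6 (3.27 ± 0.74 SE, adjusted p = 0.0108), the protease inhibitor Ctla2b (3.16 ± 0.64 SE, adjusted p = 0.00385), Adamts9 (3.03 ± 0.75 SE, adjusted p = 0.0198), the adrenomedullin co-receptor Ramp3 (2.49 ± 0.68 SE, adjusted p = 0.0347) and the laminin chain Lama4 (1.64 ± 0.35 SE, adjusted p = 0.00624). Ripk3 in heart stood at 5.01 to 5.49 at 0 hr and 5.32 to 7.08 at 48 hr, above brain at either time. Slc2a1 and Mfsd2a were among the genes with a lower response in brain. Slc2a1 stood at 4.24 to 5.05 in 0 hr hearts and at 4.49 to 7.88 in 48 hr hearts, which left a difference of -2.11 ± 0.45 SE, adjusted p = 0.00618, while Mfsd2a in heart was near the level of no read at either time (at most -0.64), so that its difference of -3.47 ± 0.90 SE, adjusted p = 0.0259 rests on few reads. The same holds for Slc13a3 (-5.61 ± 1.03 SE, adjusted p = 0.00208), at -2.47 to 2.90 in heart, and for Tnfrsf11b (-4.62 ± 1.20 SE, adjusted p = 0.0259), at -3.38 to 1.08. Blood-brain barrier genes as a list had 5 members with a lower response in brain.

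**Figure D5:**
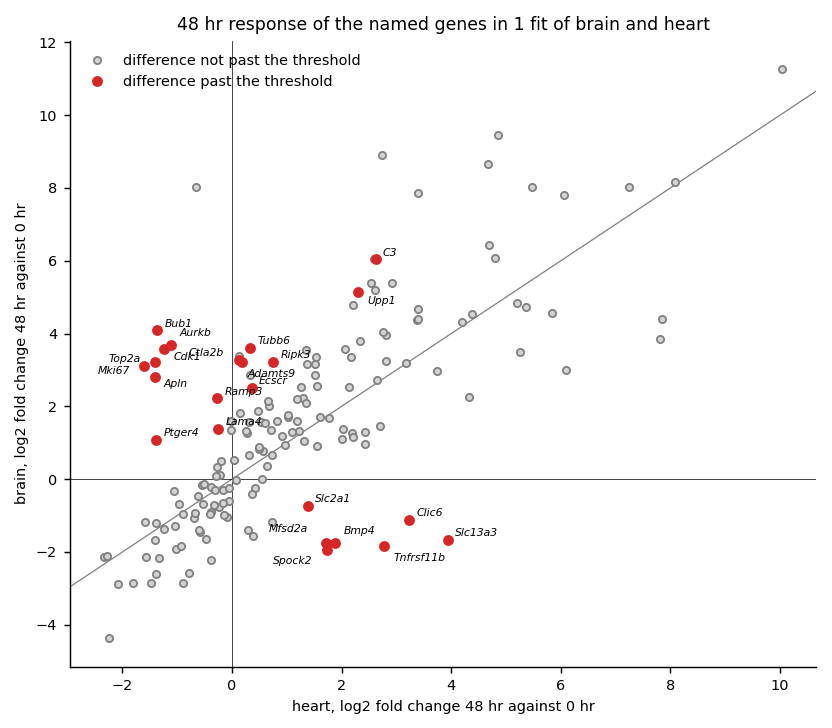
Log2 fold changes at 48 hr against 0 hr of the genes examined, in heart (x axis) and brain (y axis), from 1 fit of both tissues; the diagonal marks equal change, and red points are genes whose difference passed the threshold. Mki67, Top2a, Cdk1, Aurkb and Bub1 lie at upper left (higher in brain, lower in heart), and Slc13a3, Tnfrsf11b, Clic6, Bmp4, Spock2 and Mfsd2a at lower right.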

How the data were processed

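HA-tagged ribosomes were pulled down from brain, harvested after perfusion with PBS, and their mRNA was sequenced from TruSeq libraries. Per the labels and the methods of the study, the authors used STAR 2.4.2 for alignment to mm10 and HTSeq 0.6.1 for read counts per gene, and the deposited values are whole-number counts with no normalization. The authors normalized expression with ComBat and tested with limma after voom, steps that the deposited counts do not carry. Whether counting used strand is not given in the sources used here, so reads of a gene and its antisense partner cannot be told apart. Count files that the titles assign to 1 library were summed (28 runs for the 11 libraries), and lines that name no gene were kept out of totals and tests.

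All brain libraries of 6 times with at least 3% of reads on genes were fitted together with edgeR 4.0.16 in R 4.3.3 (filterByExpr, TMM scaling, quasi-likelihood F test, two-sided, Benjamini-Hochberg adjustment, threshold 0.05), with time and library series as factors. The interaction with heart came from 1 such fit of both tissues. SE is the log2 fold change divided by the root of F, and log2 CPM used a prior count of 2. Levels per library are not adjusted for library series, whereas fold changes come from fitted counts with the series term. A fold change is therefore not the difference between mean log2 CPM levels, least of all where the 48 hr libraries divide. Floors of 3 counts cover counting error only. The labels do not say whether libraries came from separate mice, and the codes in the file names are only read here as animals. The p-values therefore measure the spread between these samples, which may be technical. The closest pair of libraries in a group differed far beyond sampling noise (chi-square per degree of freedom 33.73), so none was counted as a repeat. On simulated data drawn from these libraries for the comparison of 48 hr with 0 hr (18820 genes), 54% of genes changed by 1 on the log2 scale and 91% of those changed by 2 were recovered, with 3 false among 148 calls. The simulated counts were drawn independently from 1 mean per gene, with changes only in genes above 1 CPM. They held neither an effect of library series nor the division of the 48 hr libraries, so these shares need not hold for the real data.

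Genes were named by this rule. Among called genes whose log2 CPM averaged 3 or more, with no overlap between 0 hr and 48 hr libraries, the 12 largest rises and 12 largest falls were named. From each gene list up to 3 called members were named in each direction, by size of change. A fixed set of 71 genes, mainly of the endothelium, its barrier and inflammation, was named whatever the result, except that an item withheld from this text is not reported here. Last came up to 5 of the largest differences in each direction from 24 hr and from heart. These differences had to pass the threshold, at the same mean level, in genes also called at 48 hr. As 0 genes passed it against 24 hr, this step named genes from the comparison with heart only. Hp, Saa1 and the marker genes C1qa, Elane, Gfap, Ly6g, Mpo, P2ry12, S100a8 and Snap25 fall outside it and were chosen after their values were seen. Members and lists were chosen with earlier results of these data known. Gene positions and antisense overlap are from GENCODE M21 (GRCm38), promoters from RefSeq. Alternatives used limma 3.58.1, DESeq2 1.42.0 and sva 3.50.0, and figures matplotlib 3.10.9.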

Additional observations from a re-analysis of the deposited data

Results flagged for a closer look

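In 23 of the 168 genes examined the 48 hr response differed between brain and heart by the interaction test of edgeR. Over all 19924 genes tested the response was higher in brain for 0.994% and lower for 1.05%. Some of the 168 genes were named for this very difference, so the choice of genes raised their share. On the log2 scale the brain minus heart difference was 5.456 for Bub1, 4.811 for Cdk1, 4.805 for Aurkb, 4.703 for Mki67 and 4.615 for Top2a, which all act in the cell cycle. It was 4.221 for Apln, 3.412 for C3, 3.269 for Tubb6, 3.162 for Ctla2b, 3.027 for Adamts9, 2.84 for Upp1, 2.49 for Ramp3, 2.466 for Ripk3, 2.464 for Ptger4, 2.148 for Ecscr and 1.637 for Lama4. The response was lower in brain for Slc13a3 (-5.606), Tnfrsf11b (-4.623), Clic6 (-4.352), Spock2 (-3.684), Bmp4 (-3.64), Mfsd2a (-3.468) and Slc2a1 (-2.114). Adjusted p in edgeR lay between 0.001323 (Ecscr) and 0.04117 (Upp1).

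In 8 of 335 groups examined 1 library stood far from the others of its group by the size of its gap to the nearest (Dixon's test), where chance gives about 1 group in 20. At 0 hr these were Ackr1 in replicate 1 (log2 CPM 4.287, the lowest), Cfb in replicate 2 (-1.321, the highest), H2-Aa in replicate 1 (5.17, the highest), Osmr in replicate 2 (5.489, the highest) and Pfkfb3 in replicate 4 (5.121, the lowest). At 48 hr they were Il1r2 in replicate 2 (0.9208, the lowest), Flt1 in replicate 2 (9.891, the highest) and Thbd in replicate 4 (9.17, the highest).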

How the results depend on the processing

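Of 135 called genes among the 168 examined, 97 were called in each of the 11 fits that left out 1 library of 0 hr or 48 hr, and 38 lost the call in at least 1. Calls lost numbered 1 with DESeq2, 1 with ComBat and limma, 22 with a replicate block, 38 with library series 1 and 2 only, 40 with limma-voom and 9 without 48 hr replicates 1 and 2. With library series 1 and 2 only, risen members numbered 9 in the NF-kappaB list, 4 in TNF and IL-1, 3 in TLR4, 1 in the IL-6 family, 4 in MHC class I, 4 in antioxidant and 3 in cell death genes.

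The 1560 higher and 1178 lower genes at 48 hr against 0 hr became 2395 and 2615 with ComBat and limma, 981 and 486 with a fold change of at least 2 also required, 745 and 341 with library series 1 and 2 only, 570 and 260 with only the 0 hr and 48 hr libraries, 912 higher with limma-voom (898 lower) and 634 lower without the library series term (1789 higher). DESeq2 gave 2330 and 1414. Added after seeing the data, series 1 alone gave 55 and 7, series 2 alone 259 and 34, and leaving out 48 hr replicates 1 and 2 gave 2965 and 2638. Leaving out 1 library in turn gave from 737 to 2060 higher and from 440 to 1576 lower genes. The counts moved by over 1.5 times without 0 hr replicate 1 (737 and 440), 0 hr replicate 2 (923 and 632) and 48 hr replicate 3 (939 and 498), and for lower genes without 0 hr replicate 4 (674), 48 hr replicate 6 (753) and 48 hr replicate 7 (780). The share of calls that were higher was 57.0%, and became 47.8% with ComBat, 68.6% with series 1 and 2 only, 68.7% with only 0 hr and 48 hr libraries and 73.8% without the series term.

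Between 48 hr and 24 hr edgeR called 0 genes (1717 at an unadjusted p under 0.05), limma-voom 0, ComBat and limma 0 higher and 1 lower, DESeq2 45 higher and 24 lower, and edgeR with no low-count filter 144 and 179. It called 1 higher and 16 lower without 6 hr replicate 6 (added after seeing the data), and from 0 to 3 higher and 0 to 2 lower with 1 library left out, 3 and 2 without 48 hr replicate 6. The 198 higher and 210 lower responses in brain than heart became 311 and 440 with ComBat, 342 and 350 with DESeq2, 53 and 34 with series 1 and 2 only, 74 and 75 with limma-voom, 675 and 453 with no filter and 129 and 108 without the series term. With 1 library left out they ranged from 117 to 236 higher and from 144 to 246 lower, with 117 higher without 0 hr replicate 3 and 125 without 0 hr replicate 4.

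Replicate numbers were not taken to pair the samples, and the correlations below cannot decide whether they do. Each same-numbered 0 hr and 48 hr pair joins libraries of different series. Same-numbered 0 hr and 48 hr libraries deviated from their group means with r from -0.557 to -0.044, and 24 hr and 48 hr libraries with r of -0.046, 0.509 and -0.256. The r of 0.509 was that of replicate 2, the only pair within 1 series. With the replicate block 1106 genes were higher and 877 lower at 48 hr, and 149 and 174 responses differed from heart.

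The sign of some log2 fold changes turned, none of them called where it turned. Klf2 was 0.31 with all libraries included, 0.30 in series 1 alone, 0.66 without the series term and 0.40 without 48 hr replicates 1 and 2. With series 1 and 2 only Kdr was 0.034, Vwa1 0.075 and Ly96 -0.070. In series 1 alone Plvap was 0.16 and Tfrc -0.19. In series 2 alone Kdr was 0.32, Tjp1 0.33, Abcg2 0.049, Slco1c1 0.31, Nfkbia -0.21, Mt1 -0.12, Mt2 -0.11, Vwa1 0.38, Pfkfb3 -0.25, Ly96 -0.94 and Cav1 0.47. Ly96 was -0.081 with limma-voom and -0.037 without 6 hr replicate 6. Without the series term Ifit1 was 0.062, Cd74 0.32 and Casp6 0.055. With only 0 hr and 48 hr libraries Kdr was 0.057, Vwa1 0.12 and Ly96 -0.19, and with the replicate block Kdr was 0.073. Without 48 hr replicates 1 and 2 Plvap was 0.33, Tfrc -0.45, Ifit1 0.084 and Cd74 0.19. With 1 library left out Plvap ranged from -0.26 to 0.19, Ly96 from -0.18 to 0.26, Kdr from -0.25 to 0.047, Klf2 from -0.54 to 0.12 and Tjp1 from -0.25 to 0.029. The cause of these shifts was not tested.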

Other observations

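Among immediate early factors 5 of 24 members tested rose at 48 hr against 0 hr (8.11% and 6.12% of all genes tested). With library series 1 and 2 only 2 rose, and without 48 hr replicates 1 and 2, 9 rose and 1 fell. The list median of log2 CPM minus the 0 hr mean was -0.09, -0.07, 1.83, -0.13, 1.80 and 2.07 in the 48 hr libraries. The AP-1 subunits Fosl1 and Junb changed by 6.24 ± 1.32 SE, adjusted p = 0.00388 and 1.86 ± 0.45 SE, adjusted p = 0.00893, and the growth regulator Myc by 3.27 ± 0.76 SE, adjusted p = 0.0068. Among glucocorticoid-responsive genes 6 of 19 members tested rose and 2 fell. With library series 1 and 2 only 1 rose and 0 fell, and without 48 hr replicates 1 and 2, 9 rose and 2 fell. The list median of log2 CPM minus the 0 hr mean was -0.31, -0.32, 2.01, 0.29, 1.43 and 1.69 in the 48 hr libraries. The transcription factor Cebpd and the cell cycle inhibitor Cdkn1a changed by 3.08 ± 0.72 SE, adjusted p = 0.00691 and 2.83 ± 0.71 SE, adjusted p = 0.0109, and the glucocorticoid receptor Nr3c1 by -0.63 ± 0.18 SE, adjusted p = 0.0252. Of efflux ABC transporters 3 of 17 members tested rose and 1 fell, with the risen Abcc3 (2.10 ± 0.39 SE, adjusted p = 0.0015), Abcb1b (1.70 ± 0.44 SE, adjusted p = 0.0129) and Abcc1 (0.96 ± 0.25 SE, adjusted p = 0.0131) and the fallen Abcc4 (-0.76 ± 0.25 SE, adjusted p = 0.046). Of 39 nutrient and hormone carriers 6 fell, among them the thiamine carrier Slc19a3 (-1.55 ± 0.46 SE, adjusted p = 0.0272), while 13 fell without 48 hr replicates 1 and 2, a setting added after seeing the data, and 2 fell with library series 1 and 2 only.

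Of glycocalyx genes 5 of 26 members tested rose and 3 fell (19.2% and 11.5%, against 8.11% and 6.12% of all genes tested), with Sdc4 (1.43 ± 0.46 SE, adjusted p = 0.0365) higher and the glypican Gpc1 (-0.73 ± 0.21 SE, adjusted p = 0.0249) lower. In BMP and TGF-beta signalling 4 of 33 members tested rose and 3 fell (12.1% and 9.09%), with Smad1 (1.28 ± 0.32 SE, adjusted p = 0.0117) higher and Bmp6 (-1.80 ± 0.39 SE, adjusted p = 0.00473) lower. Of hypoxia-responsive genes 2 of 22 members tested rose and 2 fell, with Hif1a (1.25 ± 0.30 SE, adjusted p = 0.00866) and Ndrg1 (-1.77 ± 0.30 SE, adjusted p = 0.000602) changing in opposite directions. In glycolysis 2 of 25 members tested rose (1 of them the kinase Pdk4, 1.95 ± 0.60 SE, adjusted p = 0.0324), and in the unfolded protein response 2 of 32 members tested rose and 1 fell. In these last 3 lists the share that rose (9.09%, 8.00% and 6.25%) was near the 8.11% of all genes tested. Raw counts of Pdk4 were 135, 119, 414, 387 and 354 at 0 hr and 594, 551, 905, 108, 8382 and 888 at 48 hr, in libraries of unequal depth. Replicate 6 was thus far above the other 48 hr libraries, and replicate 4 (108) was below 0 hr replicates 1 and 2 of its series. Fits that left out 1 library were not examined for the genes named only in this section.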
